A study of Homo sapiens with 4 samples.

Results

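The genes described here answered OGE in 1 of 2 osteosarcoma lines only, or far more in 1 line than in the other. HOS and U2-OS are established human osteosarcoma cell lines. Each was measured on 2 single-colour whole-transcript arrays, 1 of cells given 0 μg/mL OGE and 1 of cells given 600 μg/mL OGE for 24 h. What the abbreviation OGE stands for is not in the labels, which list no other agent or genetic change for any of the 4 arrays. There was 1 array per combination of line and dose, so no value below has a replicate, an error or a test, and a difference may be spread between arrays.

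All levels are deposited log2 values, and a response is the level with 600 μg/mL OGE minus the level without it in the same line, also in log2. A response of 1 is a 2-fold difference. The measure for each gene is the response of U2-OS minus the response of HOS. A gene counted as line-specific when this difference and the larger of its responses were both at least 1 in size, its highest level was at or above the median of that array (the floor), and the responding line reached its own array median. This gave 587 of 12028 genes at the floor, which is 4.88%, out of 18417 genes with 1 symbol. AQR and CDC25C lay just inside the threshold with differences of -1.0 each, and APPBP2 and BUB1B just outside it at -0.99. Between 0.9 and 1.0 lay 81 further genes, and between 1.0 and 1.1 lay 105 of those called, so many genes sit close to the line that divides them.

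As background, cells under metabolic or protein stress switch on overlapping programmes. ATF4 and CHOP direct amino acid supply and stress signalling, NRF2 directs glutathione and other antioxidant genes, HIF factors direct glucose uptake and glycolysis, and AP-1 and NF-kB direct immediate early genes, cytokines and matrix proteases. Growing cells also need waves of replication and mitosis genes, and cells of bone origin secrete a collagen-rich matrix. Lines from different tumours differ in which of these programmes run at rest, so the same agent can meet different starting levels.

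Array medians lay between 3.58 and 3.62. Of the osteoblast markers, COL1A1, SPARC, RUNX2, ALPL, SP7 and COL1A2 reached the floor, and SPP1 and IBSP did not. Among the markers of other cells, 0 of 4 endothelial and 1 of 5 immune markers, CD68, reached it, and 4 of 5 epithelial markers did, led by the keratins KRT8 and KRT18. EPCAM, which marks epithelium, was 4.65 and 3.81 in HOS without and with OGE and 3.50 and 3.54 in U2-OS. None of these markers except COL1A2 was line-specific.

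The 587 genes fell into 4 classes of unequal size. U2-OS alone or chiefly showed higher levels with OGE at 135 genes (1.12% of genes at the floor) and lower levels at 356 (2.96%). HOS showed higher levels at 51 genes (0.424%) and lower levels at 45 (0.374%). For scale, a 2-fold response in U2-OS was seen upward in 340 genes (2.83%) and downward in 912 (7.58%), and in HOS upward in 197 (1.64%) and downward in 251 (2.09%). Both lines passed 2-fold in the same direction at 207 genes (1.72%). The spread of responses over all genes at the floor was wider in U2-OS, with an SD over genes of 0.63 against 0.45 in HOS. When the HOS responses were scaled up by that ratio of 1.41, the HOS classes grew to 164 higher and 183 lower genes and the U2-OS classes became 114 and 281, so the balance between the lines depends on this step.

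In most line-specific genes the other line did not respond by the measure used. In 461 of them (3.83% of genes at the floor) the other line moved by less than 0.5, in 95 it moved at least that far in the same direction, and in 31 at least that far in the opposite one. Of all 587, 28 were past 2-fold in both lines. The other line stayed under its array medians at both doses for 149 genes, of which 99 belonged to the U2-OS lower class, 27 to U2-OS higher, 17 to HOS lower and 6 to HOS higher. At such levels a lower value in that line could hardly be measured. The rule asks for the array median in the responding line only. The share of all genes at the floor with 1 line under its medians was not worked out. For contrast, the responses of ATP6AP2, FBN1 and RCN2 were the same in each line, at -1.0, -1.37 and -1.58.

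**Figure D1:**
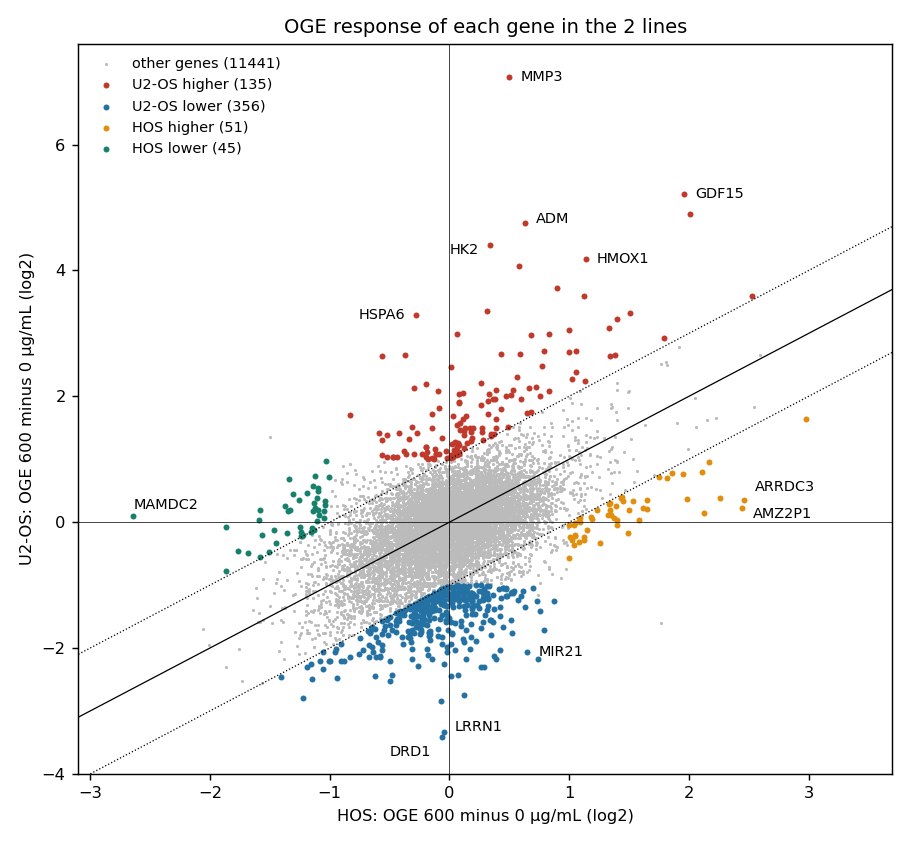
Response to OGE of each gene at the floor, HOS on the horizontal axis and U2-OS on the vertical axis, both as log2 of 600 minus 0 μg/mL. The solid diagonal marks equal responses, the dotted lines a difference of 1, and coloured points are the 135, 356, 51 and 45 genes of the classes. MMP3 lies highest at 7.07 in U2-OS and 0.50 in HOS, and the U2-OS lower class forms the broad cloud under the diagonal with HOS responses near 0.

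The largest difference of any gene was that of MMP3, stromelysin, a secreted protease that digests matrix proteoglycans and activates collagenases. MMP3 was 1.33 and 1.83 in HOS without and with OGE, and 2.64 and 9.71 in U2-OS. Only the treated U2-OS array was above its median. The response was 7.07 in U2-OS and 0.50 in HOS, a difference of 6.57. MMP1, interstitial collagenase, was 3.17 and 3.18 in HOS and 2.68 and 5.15 in U2-OS, with responses of 0.01 and 2.47. MMP10, a second stromelysin, was 2.54 and 2.56 in HOS and 2.56 and 3.80 in U2-OS. All 3 reached the array median on the treated U2-OS array only. They were the U2-OS higher genes among 21 members of the protease and inhibitor list at the floor, whose median difference was -0.17, against -0.05 over all genes at the floor. Line-specific were 5 of the 21 (23.8%, beside 4.88% over all genes at the floor). Of the inhibitors, TIMP2, which blocks matrix metalloproteases, was 6.94 and 6.74 in HOS and 8.29 and 6.90 in U2-OS, where the response was -1.39. SERPINE2, which inhibits thrombin and other serine proteases, had a response of 1.40 in HOS and -0.05 in U2-OS.

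ADM and HK2, of the hypoxia and glycolysis list, came next in U2-OS. ADM, the vasodilator peptide adrenomedullin, was 7.09 and 7.72 in HOS without and with OGE and 4.92 and 9.68 in U2-OS. HK2, the hexokinase that traps glucose in the cell, was 7.52 and 7.86 in HOS and 4.90 and 9.31 in U2-OS. Both began lower in U2-OS than in HOS and ended higher. The U2-OS responses were 4.76 and 4.41 and the HOS responses 0.63 and 0.34. NIPAL4, a magnesium transporter, GEM, a small GTPase of the RGK group, and the antisense RNA THUMPD3-AS1 turned in the same way, and with ADM and HK2 they were the 5 genes at the floor whose 2-fold gap between the lines changed sides.

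The hypoxia and glycolysis list held 33 genes, all at the floor, and 6 were line-specific (18.2%, beside 4.88% over all genes at the floor), all of them U2-OS higher. Beside ADM and HK2 these were the mitophagy receptor BNIP3, the pyruvate dehydrogenase kinase PDK1, NDRG1, a gene switched on by hypoxia and differentiation, and the glucose transporter SLC2A1. BNIP3 was 6.19 and 7.02 in HOS and 4.53 and 7.52 in U2-OS. PDK1 was 5.30 and 5.89 in HOS and 3.96 and 6.64 in U2-OS. In each of these 6 genes HOS moved in the same direction by a smaller step, from 0.34 in HK2 to 1.40 in NDRG1. Over the whole list the median response was 0.46 in HOS and 0.68 in U2-OS, and the median difference 0.16, or 0.0265 with HOS scaled.

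The promoters of HK2 and DDIT4 are printed because each held the letters searched. HK2 is among the 10 leading U2-OS higher genes and DDIT4 ranks 12 in that class, and DDIT4 was chosen after its match was seen. Capitals mark the core of the hypoxia element, ACGTG, on either strand. Sequences are the 250 bases before the RefSeq start in GRCh38.p14, on the plus strand, at chr2:74833877-74834126 for HK2 and chr10:72273674-72273923 for DDIT4.
HK2: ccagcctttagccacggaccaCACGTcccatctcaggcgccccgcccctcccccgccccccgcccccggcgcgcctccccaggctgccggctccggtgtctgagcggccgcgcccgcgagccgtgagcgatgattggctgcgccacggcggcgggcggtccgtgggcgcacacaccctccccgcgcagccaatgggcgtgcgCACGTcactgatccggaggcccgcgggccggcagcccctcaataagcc
DDIT4: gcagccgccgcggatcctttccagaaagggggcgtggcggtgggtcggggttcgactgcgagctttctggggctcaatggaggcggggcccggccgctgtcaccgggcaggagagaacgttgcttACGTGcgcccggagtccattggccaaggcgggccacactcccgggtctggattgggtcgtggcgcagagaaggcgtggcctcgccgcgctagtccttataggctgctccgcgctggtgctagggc

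HK2 held 2 such cores and DDIT4 held 1. The same letters were found in 25 of 92 U2-OS higher promoters (27.2%), 57 of 302 U2-OS lower (18.9%), 12 of 38 HOS higher (31.6%) and 6 of 29 HOS lower (20.7%), beside 23.2% of 9536 promoters of genes at the floor and 18.7% of all 27305 promoters in the table. Of the other leading genes of the class with a promoter in the table, ADM, HSPA6, GDF15, NIPAL4 and DEPP1 had none in the window. A match is a stretch of letters and not a measured site.

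Targets of ATF4 and CHOP were found in both upward classes. Of 34 list members at the floor, 10 were line-specific (29.4%, beside 4.88% over all genes at the floor), 7 of them U2-OS higher and 3 HOS higher. GDF15, a secreted stress cytokine, was 2.61 and 4.57 in HOS without and with OGE and 3.98 and 9.20 in U2-OS. DDIT4, which restrains mTORC1, was 5.19 and 7.20 in HOS and 5.52 and 10.41 in U2-OS. ATF3, a stress transcription factor, was 4.22 and 4.90 in HOS and 3.87 and 6.85 in U2-OS. All of these were higher with OGE in both lines, by more in U2-OS. DDIT3, which encodes CHOP itself, had responses of 1.06 in HOS and 2.72 in U2-OS, the pseudokinase TRIB3 of 1.79 and 2.92, and PPP1R15A, which helps to restart translation after stress, of 2.53 and 3.59. TRIB3 and PPP1R15A did not keep the class under all alternatives of scaling and probe sets. NUPR1, a small chromatin-bound stress protein, was the U2-OS gene of this list with the flattest HOS response, 0.09 against 1.46.

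SLC7A11, STC2 and PHGDH were the HOS higher members of the list. SLC7A11, the cystine importer that feeds glutathione synthesis, was 5.27 and 7.53 in HOS and 6.19 and 6.57 in U2-OS, so that it passed the U2-OS level only on the treated array. STC2, a secreted glycoprotein, was 6.31 and 7.57 in HOS and 3.06 and 2.73 in U2-OS. PHGDH, the first enzyme of serine synthesis, was 8.06 and 9.29 in HOS and 8.76 and 8.96 in U2-OS. PHGDH did not keep the class under all alternatives of scaling and probe sets. The list as a whole had a median response of 0.69 in HOS and 0.87 in U2-OS, and its median difference was 0.30, or 0.0584 with HOS scaled. Members were thus spread to both sides, from -1.88 for SLC7A11 to 3.26 for GDF15.

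NRF2 targets were also found in both upward classes, 2 in U2-OS and 3 in HOS. That is 22.7% of 22 at the floor, beside 4.88% over all genes at the floor. HMOX1, heme oxygenase, which breaks down heme, was 5.00 and 6.14 in HOS without and with OGE and 5.18 and 9.37 in U2-OS, with responses of 1.14 and 4.19. The aldo-keto reductase AKR1C1 was 2.38 and 2.70 in HOS and 2.93 and 4.86 in U2-OS. It has near-identical family members and 2 probe sets, whose mean gave a difference of 0.755, no longer line-specific. On the other side, GCLM, the modifier subunit of the enzyme that begins glutathione synthesis, was 3.83 and 5.94 in HOS and 3.84 and 4.63 in U2-OS. NQO1, a quinone reductase, was 6.13 and 7.52 in HOS and 6.45 and 6.70 in U2-OS. These 2 genes and SLC7A11 were the HOS higher members. Of the members at the floor, 16 had a difference below 0 and the median difference was -0.46, and the median response was 0.64 in HOS against 0.32 in U2-OS. With HOS scaled the median difference was -0.75.

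Immediate early genes also appeared on both sides. Of 28 at the floor, 7 were line-specific (25.0%, beside 4.88% over all genes at the floor). U2-OS higher were 5 of them: ATF3, MYC, DUSP1, JUN and KLF10. MYC, a transcription factor that drives growth, was 4.13 and 5.13 in HOS without and with OGE and 5.83 and 8.88 in U2-OS. JUN, a subunit of AP-1, was 6.69 and 6.75 in HOS and 6.91 and 8.45 in U2-OS. DUSP1, a phosphatase that turns off MAP kinases, had responses of 0.53 in HOS and 2.10 in U2-OS. IER3 and IER2 went the other way. IER2 was 5.81 and 7.14 in HOS and 6.79 and 7.08 in U2-OS. KLF10 and IER2 did not keep their class under all alternatives of scaling and probe sets. The list's median difference was 0.42, and -0.0063 with HOS scaled, so its direction depends on that step.

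NF-kB targets, cytokines and chemokines were 2-fold higher in U2-OS at 6 of 21 members at the floor and in HOS at 0, beside 2.83% and 1.64% of all genes at the floor. Line-specific were 4 of them (19.0%, beside 4.88%). TNFAIP3, which shuts off NF-kB signalling, was 2.69 and 3.12 in HOS without and with OGE and 2.74 and 5.41 in U2-OS. NFKBIA, the inhibitor that holds NF-kB in the cytoplasm, was 5.40 and 5.48 in HOS and 5.25 and 7.16 in U2-OS. The cytokine IL24 was 2.73 and 2.99 in HOS and 2.59 and 4.80 in U2-OS. In each of the 3 the untreated levels of the lines lay close together and only the treated U2-OS array stood apart. PTGS2, the inducible cyclooxygenase, was low throughout, at 2.37 and 2.44 in HOS and 2.53 and 3.64 in U2-OS, and missed the threshold with cyclic loess. The median difference of the list was 0.39, or 0.22 with HOS scaled.

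Among heat shock genes, HSPA6 stood apart. HSPA6, an inducible HSP70 that is nearly silent in unstressed cells, was 3.56 and 3.28 in HOS without and with OGE and 3.50 and 6.80 in U2-OS. Its difference was 3.58, while the median of 20 members at the floor was -0.27. Line-specific were 2 of the 20 (10.0%, beside 4.88% over all genes at the floor). DNAJB4, a co-chaperone of HSP70, was the other line-specific member and was HOS higher, at 4.55 and 5.57 in HOS and 5.74 and 5.45 in U2-OS. It left the class under quantile normalization and cyclic loess. The p53 targets held 3 U2-OS higher genes among 25 at the floor, GDF15, the nuclease AEN and the growth arrest gene GADD45A, which is 12.0% beside 4.88% over all genes at the floor, and a median difference of 0.04. With HOS scaled, AEN and GADD45A were under the threshold at 0.91 and 0.83.

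The HSPA6 promoter is shown because this gene moved in 1 line only, and capitals mark GAANNTTC, an inverted pair of heat shock units. This motif was chosen after the values were seen. The stretch is the 250 bases before the RefSeq start in GRCh38.p14, at chr1:161524290-161524539 on the plus strand.
HSPA6: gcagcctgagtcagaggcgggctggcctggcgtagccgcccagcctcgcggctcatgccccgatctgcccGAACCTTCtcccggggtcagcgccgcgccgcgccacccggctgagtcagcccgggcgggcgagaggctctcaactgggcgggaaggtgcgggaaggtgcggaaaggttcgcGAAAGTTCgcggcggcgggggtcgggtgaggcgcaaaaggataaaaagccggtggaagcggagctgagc
HSPA6 held 2 matches. The motif was in 11 of 92 U2-OS higher promoters (12.0%), 18 of 302 U2-OS lower (5.96%), 1 of 38 HOS higher (2.63%) and 2 of 29 HOS lower (6.90%), against 3.81% of genes at the floor and 5.85% of all promoters. The HSPA6 window also held 2 matches to the AP-1 motif TGANTCA, which was in 8.70% of U2-OS higher, 3.64% of U2-OS lower, 5.26% of HOS higher and 3.45% of HOS lower promoters, in 4.04% of those of genes at the floor and in 6.60% of all promoters.

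Small nucleolar and Cajal body RNAs guide the chemical modification of ribosomal and spliceosomal RNA. They gave 19 line-specific genes among 111 at the floor (17.1%, beside 4.88% over all genes at the floor). Of the 19, 13 were U2-OS higher and 6 HOS higher. SNORD14C was 6.92 and 7.50 in HOS without and with OGE and 3.46 and 7.53 in U2-OS. SNORD14E was 4.30 and 5.42 in HOS and 1.76 and 5.35 in U2-OS. Both began far below HOS in U2-OS and reached the HOS level with OGE. SNORD74 did the same, at 8.23 and 8.56 in HOS and 6.45 and 8.48 in U2-OS. SNORA23, SNORA51, SNORD116-6, SNORD13P3, SNORA5C and SCARNA7 were HOS higher, with differences from -1.54 to -1.04. SCARNA7 was 6.74 and 8.91 in HOS and 7.75 and 8.71 in U2-OS. Copies of one RNA can share probes, so single members are uncertain. The median difference was 0.19, and -0.0547 with HOS scaled.

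Ribosome biogenesis genes mostly had a difference above 0, at 23 of 30, and the median was 0.26, beside -0.05 over all genes at the floor. Such a difference can also come from a lower level in HOS, as in RRS1. Line-specific were 4 of the 30 (13.3%, beside 4.88% over all genes at the floor): 2 U2-OS higher, 1 U2-OS lower and 1 HOS lower. NOP16, a nucleolar assembly factor, was 7.24 and 7.15 in HOS without and with OGE and 5.14 and 6.95 in U2-OS, so it too reached the HOS level from below. RRS1, another assembly factor, was 6.65 and 5.46 in HOS and 5.10 and 5.57 in U2-OS, and the untreated gap was gone with OGE. RRN3, which brings RNA polymerase I to ribosomal DNA, went the other way at 6.06 and 6.60 in HOS and 5.81 and 4.72 in U2-OS. Cytosolic ribosomal protein genes had 3 line-specific members of 62, RPL10, RPL36 and RPL22L1, which is 4.84% and close to the 4.88% over all genes at the floor. RPL22L1 lost the call under quantile normalization and cyclic loess. Their many processed copies make single members uncertain.

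The largest class, lower in U2-OS, was led by genes at low levels in HOS. DRD1, a dopamine receptor, was 1.95 and 1.89 in HOS without and with OGE and 5.87 and 2.45 in U2-OS. LRRN1, a leucine-rich repeat membrane protein, was 1.66 and 1.61 in HOS and 6.17 and 2.83 in U2-OS. SLC2A12, a glucose transporter, was 1.85 and 1.78 in HOS and 5.18 and 2.33 in U2-OS. The responses in U2-OS were -3.42, -3.34 and -2.85, and HOS lay under its array medians at both doses in all 3. HAPLN1, which links hyaluronan to proteoglycans, had U2-OS levels of 7.91 and 5.17, and TNFAIP6, a hyaluronan-binding protein, of 5.96 and 3.65. IGFBP5, which binds insulin-like growth factors in bone matrix, was 3.36 and 3.62 in HOS and 7.17 and 4.87 in U2-OS. These genes kept part of their excess over HOS with OGE. PIK3R3, a regulatory subunit of PI3 kinase, was 3.26 and 4.05 in HOS and 5.66 and 3.94 in U2-OS, and the zinc finger gene ZNF404 was 1.47 and 1.86 in HOS and 4.92 and 2.74 in U2-OS. PYROXD1, a redox enzyme, had a response of 0.74 in HOS, where it stayed under the medians, and of -2.17 in U2-OS.

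The mature sequence of miR-21-5p is printed because MIR21, a microRNA gene linked to growth of many tumours, was among the largest differences and moved in opposite directions. Its seed, bases 2 to 8, is in capitals, and RefSeq places it at chr17:59841273-59841294 on the plus strand of GRCh38.p14.
hsa-miR-21-5p: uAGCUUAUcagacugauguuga
MIR21 was 4.12 and 4.77 in HOS without and with OGE and 7.37 and 5.31 in U2-OS, with responses of 0.65 and -2.06. The lines were 3.25 apart without OGE and 0.54 apart with it. A whole-transcript array labels long RNA and does not measure the mature miRNA by itself. VMP1, which lies before MIR21 in the gene order and whose transcripts can run into it, had responses of -0.28 in HOS and -0.36 in U2-OS and was not line-specific.

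**Figure D2:**
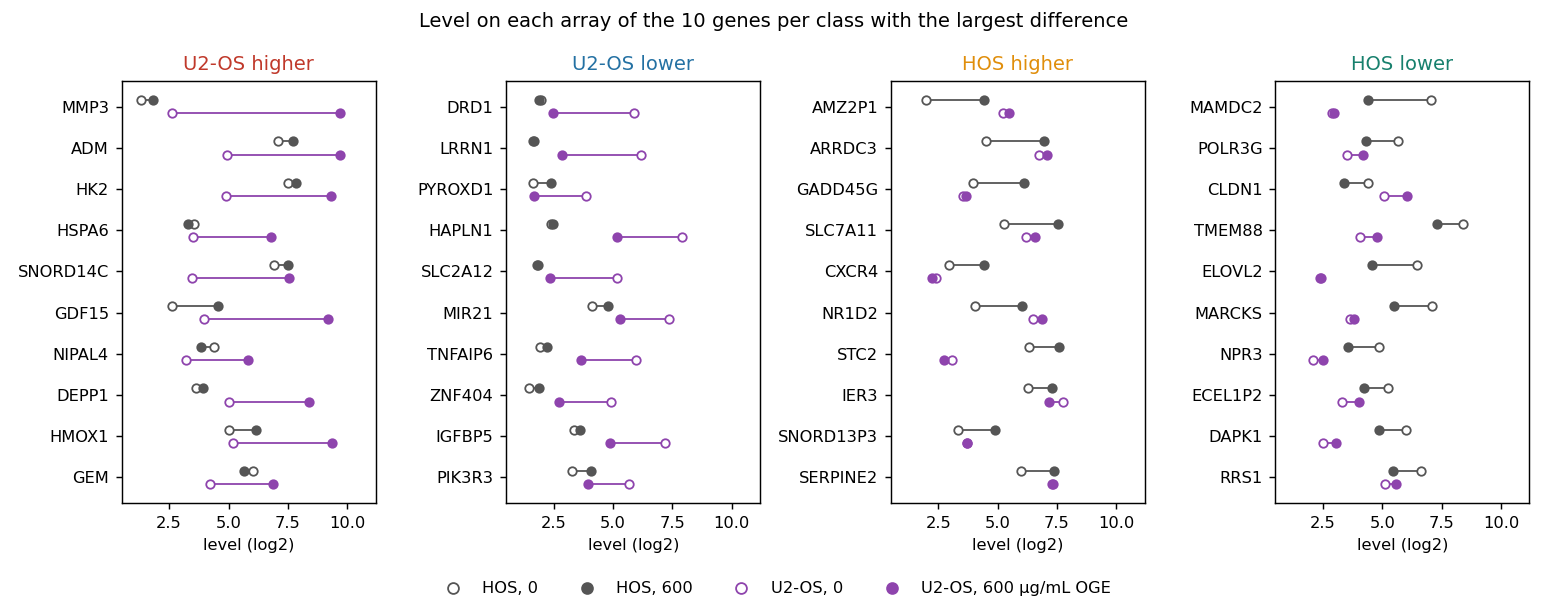
Levels on each array (log2) of the 10 genes per class with the largest difference between the responses; open circles are 0 and filled circles 600 μg/mL OGE, grey for HOS and purple for U2-OS. MMP3 runs from 2.64 to 9.71 in U2-OS, DRD1 from 5.87 to 2.45 there, ARRDC3 from 4.51 to 6.97 in HOS and MAMDC2 from 7.04 to 4.40 in HOS, while the other line of these genes moves by at most 0.50.

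Mitosis genes had more negative responses in U2-OS than in HOS. Of 33 mitosis genes at the floor, 30 had a difference below 0, and 10 were line-specific (30.3%, beside 4.88%), all in the U2-OS lower class. The median response was -0.74 in HOS and -1.46 in U2-OS. The difference had a median of -0.70, or -0.47 with HOS scaled, beside -0.05 over all genes at the floor. Fewer cells in mitosis and less RNA per cell cannot be told apart here. KIF11, the motor that separates spindle poles, was 4.76 and 4.45 in HOS without and with OGE and 5.64 and 3.46 in U2-OS. TOP2A, the topoisomerase that untangles chromosomes, was 6.61 and 6.22 in HOS and 7.49 and 5.56 in U2-OS. SPC25, a kinetochore subunit, was 4.47 and 4.31 in HOS and 5.61 and 3.83 in U2-OS. In each, U2-OS began above HOS and ended below it. DLGAP5 and SKA2, which act at the spindle, and the kinetochore genes NUF2, NDC80 and SKA3 had lower levels in both lines, with HOS responses from -1.22 to -0.56 and U2-OS responses from -2.80 to -1.78. In 6 of the 10, then, HOS moved the same way by at least 0.5. NUF2, NDC80 and SKA3 did not keep the class under all alternatives of scaling and probe sets.

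Replication genes were close to 0 in HOS. Of 44 genes of G1/S and DNA replication at the floor, 41 had a difference below 0. The share of all genes at the floor below 0 was not worked out. The median response of the list was -0.01 in HOS and -0.74 in U2-OS. Few members passed the threshold, 3 of 44 (6.82%, beside 4.88% over all genes at the floor). CDC6, which loads the replicative helicase, was 7.91 and 7.87 in HOS without and with OGE and 7.84 and 6.68 in U2-OS. The primase subunit PRIM1 was 6.82 and 6.17 in HOS and 7.40 and 5.71 in U2-OS. PRIM1 lost the call with HOS scaled, at -0.78. The median difference of -0.67 lay between -0.69 and -0.63 over all alternatives. CCNE1, the cyclin that drives entry into S phase, was HOS higher, at 5.46 and 6.86 in HOS and 7.76 and 7.80 in U2-OS. Homologous recombination and Fanconi genes had median responses of -0.015 in HOS and -0.74 in U2-OS over 14 members at the floor. EXO1, a resection nuclease, was 6.17 and 6.19 in HOS and 6.82 and 5.53 in U2-OS, BLM, a helicase, was 5.15 and 5.10 in HOS and 5.21 and 3.90 in U2-OS, and the helicase BRIP1 had responses of -0.30 and -1.52.

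Histone genes of S phase gave 7 U2-OS lower members and 1 HOS lower member among 51 at the floor. That is 15.7% line-specific, beside 4.88% over all genes at the floor. H2BC12 had responses of -0.94 in HOS and -2.47 in U2-OS, and H3C1 of 0.28 and -1.12. H1-5, a linker histone, was 8.50 and 7.46 in HOS without and with OGE and 4.05 and 4.32 in U2-OS. Histone copies are near-identical, so single members are uncertain, and the median difference was -0.31.

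Matrix and TGF-beta genes in the U2-OS lower class were mostly those that U2-OS made in excess. Over 27 matrix genes at the floor the median response was -0.54 in HOS and -1.17 in U2-OS. Of these, 5 were line-specific (18.5%, beside 4.88% over all genes at the floor). LAMA4, a laminin chain, was 2.11 and 2.34 in HOS without and with OGE and 4.46 and 3.14 in U2-OS. THBS1, thrombospondin, was 7.25 and 6.80 in HOS and 9.47 and 7.84 in U2-OS. COL11A1, a fibrillar collagen, had responses of -0.20 and -1.21, just past the threshold at -1.01, and lost the call under quantile normalization, centring and HOS scaling. With HOS scaled THBS1 lay just under it, at -0.9973. COL1A2, which encodes a chain of type I collagen, was the exception, high and lower with OGE in HOS at 8.78 and 7.53 and nearly flat in U2-OS at 4.46 and 4.38. Its partner chain COL1A1 had responses of -0.94 in HOS and -1.75 in U2-OS and was not line-specific.

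In the TGF-beta and BMP list, 4 of 29 genes at the floor were U2-OS lower and 1 was U2-OS higher. That is 17.2% line-specific, beside 4.88% over all genes at the floor. LTBP1, which tethers latent TGF-beta to the matrix, was 3.52 and 3.02 in HOS without and with OGE and 7.95 and 5.43 in U2-OS. The BMP target ID1 was 4.47 and 4.57 in HOS and 7.30 and 6.24 in U2-OS. BMPR2, a BMP receptor, had responses of -0.10 and -1.24, and SKIL, a brake on SMAD signalling, of 0.33 and -1.02. BMP2, a bone-forming ligand, was 3.89 and 4.15 in HOS and 4.24 and 6.10 in U2-OS, so the ligand and the receptor moved apart in U2-OS. MSX2, a homeobox gene of the bone lineage, had responses of -0.06 and 1.33. PDGFRA, a growth factor receptor, and its ligand PDGFC had U2-OS responses of -1.46 and -2.33, beside -0.39 and -1.06 in HOS, and both lost the call with HOS scaled, at -0.91 and -0.84.

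AMZ2P1 and ARRDC3 led the HOS higher class. AMZ2P1, a transcribed pseudogene, was 1.99 and 4.43 in HOS without and with OGE and 5.24 and 5.46 in U2-OS. ARRDC3, an arrestin-related protein that directs membrane receptors to degradation, was 4.51 and 6.97 in HOS and 6.72 and 7.07 in U2-OS. NR1D2, a nuclear receptor of the circadian clock, was 4.06 and 6.04 in HOS and 6.49 and 6.86 in U2-OS. In these 3 genes U2-OS was high from the start and HOS came up towards it. GADD45G, a stress sensor of the GADD45 family, was 3.97 and 6.10 in HOS and 3.52 and 3.67 in U2-OS. CXCR4, the chemokine receptor, was 2.95 and 4.44 in HOS and 2.39 and 2.22 in U2-OS, under the U2-OS array medians at both doses. These opened a gap where the lines had been alike. IER3, an early response gene that limits cell death, was 6.28 and 7.28 in HOS and 7.75 and 7.18 in U2-OS. It has 3 probe sets and its HOS response of 1.00 was at the threshold, so it left the class under 4 of the alternatives.

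The GADD45G promoter is printed because the gene responded in HOS only, is among those that lead the class and held the motif. Capitals mark the ATF4 composite motif TGATGNAA. It spans the 250 bases before the RefSeq start, at chr9:89604762-89605011 on the plus strand of GRCh38.p14.
GADD45G: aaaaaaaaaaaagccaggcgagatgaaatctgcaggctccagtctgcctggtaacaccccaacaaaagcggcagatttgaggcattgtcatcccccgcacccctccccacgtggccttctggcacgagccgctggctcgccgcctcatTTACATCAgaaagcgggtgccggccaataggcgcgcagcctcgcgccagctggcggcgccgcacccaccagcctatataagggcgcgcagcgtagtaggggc
GADD45G held 1 match. The motif was rare everywhere, in 1 of 38 HOS higher promoters, 1 of 92 U2-OS higher, 6 of 302 U2-OS lower and 0 of 29 HOS lower, and in 1.34% of genes at the floor and 3.19% of all promoters. The same window holds the E-box CACGTG, which contains the hypoxia core. The E-box was in 18.4% of HOS higher, 15.2% of U2-OS higher, 7.28% of U2-OS lower and 6.90% of HOS lower promoters, beside 9.14% of genes at the floor and 6.49% of all promoters.

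MAMDC2 led the HOS lower class, in which U2-OS lay under its array medians at both doses for 17 of 45 genes (37.8%). The like share over all genes at the floor was not worked out. MAMDC2, a matrix proteoglycan, was 7.04 and 4.40 in HOS without and with OGE and 2.89 and 2.99 in U2-OS. ELOVL2, which lengthens polyunsaturated fatty acids, was 6.46 and 4.59 in HOS and 2.43 and 2.36 in U2-OS. MARCKS, an actin-binding substrate of protein kinase C, was 7.09 and 5.51 in HOS and 3.63 and 3.82 in U2-OS. With OGE, HOS kept more of each than U2-OS. NPR3, the clearance receptor for natriuretic peptides, was 4.85 and 3.54 in HOS and 2.08 and 2.52 in U2-OS, and it left the class when its 2 probe sets were averaged. Several of the leading genes also moved up in U2-OS: POLR3G, a subunit of RNA polymerase III, had responses of -1.34 in HOS and 0.69 in U2-OS, the tight junction gene CLDN1 of -1.03 and 0.97, the Wnt inhibitor TMEM88 of -1.12 and 0.74, and the kinase DAPK1, which promotes cell death, of -1.14 and 0.58.

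How far apart the lines stood at the start differed by class. Of the U2-OS lower genes, 212 of 356 were at least 2-fold higher in U2-OS than in HOS without OGE and 1 was 2-fold higher in HOS, while over all genes at the floor the numbers were 961 and 659. Of the HOS lower genes, 33 of 45 were 2-fold higher in HOS at the start and 2 in U2-OS. Of the U2-OS higher genes, 39 of 135 started 2-fold higher in HOS and 11 in U2-OS, and of the HOS higher genes 17 of 51 started 2-fold higher in U2-OS and 2 in HOS. In each class the starting level was more often on the side from which the response closed the gap. The gap and the response share the untreated arrays and the floor needs a high value, so these counts describe the classes and test nothing.

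Sorted by the gap before and after OGE, 237 of the 587 genes went from a 2-fold gap to less, 116 went from less to a 2-fold gap, 59 narrowed, 16 widened, 5 turned and 154 stayed under 2-fold at both doses. Over all genes at the floor 7.47% closed, 4.91% opened, 3.65% narrowed, 2.30% widened, 0.0416% turned and 81.6% stayed under 2-fold, but the threshold on the difference itself keeps most genes with steady gaps out of the classes. Closing was the most common course of the U2-OS lower class, with 175 of 356. Opening was the most common course of the U2-OS higher class, with 54 of 135, including HSPA6, HMOX1, DDIT4, the uridine phosphorylase UPP1 and TRIML2. UPP1 was 5.49 and 6.39 in HOS and 4.54 and 8.26 in U2-OS. The widened genes of that class were led by MMP3, GDF15, DEPP1, MYC and BHLHE40. BHLHE40, a clock and hypoxia repressor, was 5.22 and 6.01 in HOS and 6.44 and 9.16 in U2-OS, and DEPP1, a target of FOXO factors, was 3.62 and 3.93 in HOS and 5.02 and 8.38 in U2-OS.

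**Figure D3:**
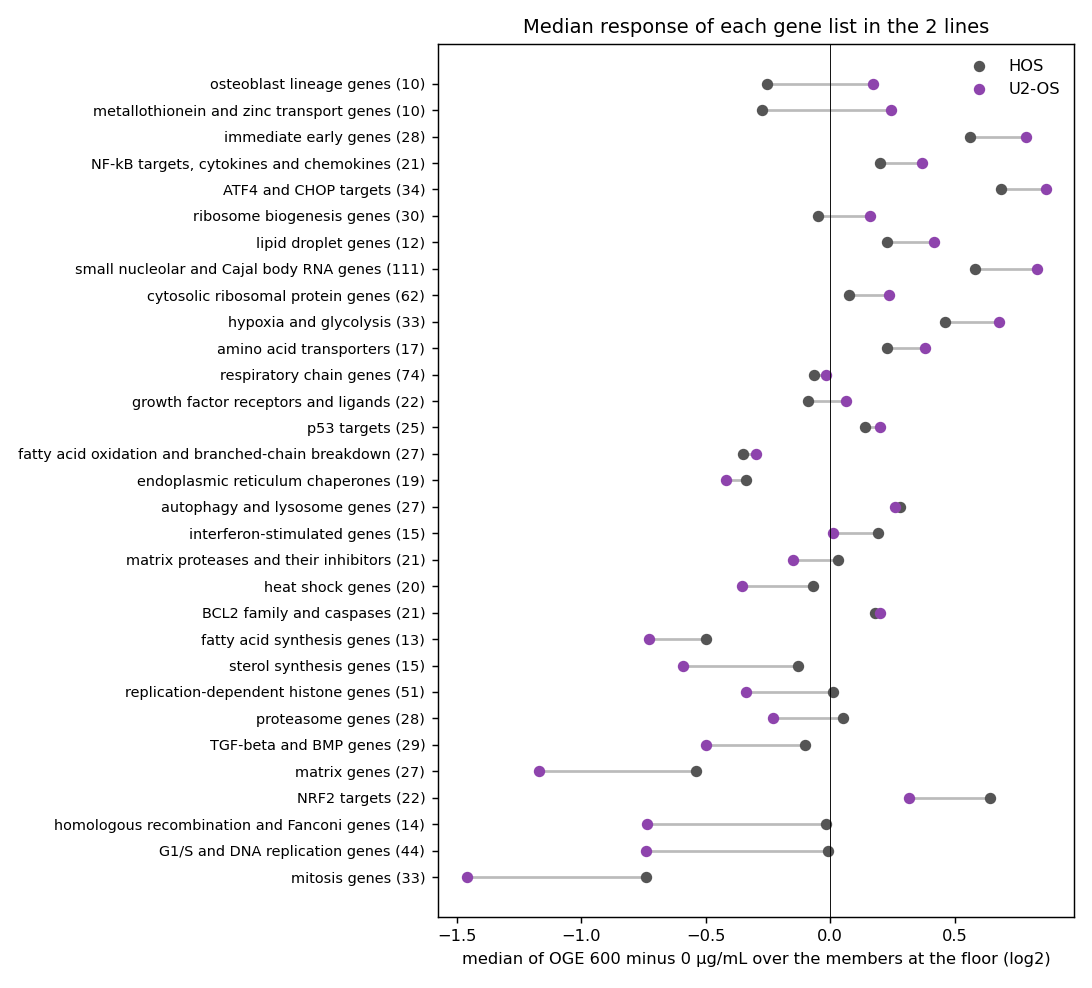
Median response to OGE (log2, 600 minus 0 μg/mL) over the members at the floor of each gene list with at least 10 of them, HOS in grey and U2-OS in purple, with the number of members in brackets. Replication genes lie at -0.01 in HOS and -0.74 in U2-OS, NRF2 targets at 0.64 and 0.32; the median difference changes sign with HOS scaled for immediate early genes, small nucleolar RNAs, endoplasmic reticulum chaperones, amino acid transporters and growth factor genes.

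In other lists the counts were small. Beside the 4.88% over all genes at the floor, the respiratory chain had 0 line-specific genes of 74 at the floor, sterol synthesis 0 of 15, endoplasmic reticulum chaperones 0 of 19, and metallothionein and zinc transport genes 0 of 10, and in the 3 shorter lists a count of 0 is near that share. Osteoblast lineage genes had 3 of 10 (30.0%): BMP2 and MSX2 were U2-OS higher and COL1A2 HOS lower. Lipid droplet genes had 2 of 12 (16.7%), both U2-OS higher: PLIN2, which coats droplets, was 5.90 and 7.41 in HOS without and with OGE and 4.44 and 7.76 in U2-OS, and HILPDA, which blocks fat breakdown, had responses of 0.68 and 1.75. Of the fatty acid genes, ACADM, which begins the oxidation of medium-chain fats, had responses of -1.15 in HOS and -2.49 in U2-OS, and FADS2, a desaturase, of -0.05 and -1.05. With HOS scaled, HILPDA and ACADM lost the call, at 0.79 and -0.87, and FADS2 lost it under 4 alternatives. GABARAPL1, an autophagy gene, was HOS higher at 1.95 against 0.77. The proteasome list had 1 of 28 (3.57%), PSMD12, the BCL2 family and caspase list 1 of 21 (4.76%), CASP6, and the interferon list 1 of 15 (6.67%), IFI44. These genes were all U2-OS lower, and the shares are near the 4.88% over all genes at the floor. In all, 112 of the 587 genes were in any of the 35 lists, among them 50 of the 135 U2-OS higher genes and 40 of the 356 U2-OS lower ones. The share of all genes at the floor in any list was not worked out. The lists were chosen with earlier results of these data known, so these counts describe the lists and test nothing.

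The classes differed in gene span, the distance from the first to the last base of the gene in RefSeq, which the rule did not use. The median span was 63.0 kb for U2-OS lower genes, 38.5 kb for HOS lower, 13.1 kb for HOS higher and 8.59 kb for U2-OS higher, against 24.3 kb for all genes at the floor. Among protein-coding genes alone the medians were 63.7, 38.5, 14.6 and 12.8 kb against 26.1 kb, in the same order as with RNA genes included. In 5 groups of genes of rising span, the share in the U2-OS lower class was 1.12%, 0.957%, 2.33%, 4.33% and 6.07%. The share in the U2-OS higher class ran the other way, from 2.33% in the shortest group to 0.666% in the longest. Over all genes the median response in these groups went from 0.11 to -0.12 in HOS and from 0.20 to -0.27 in U2-OS, so long genes were lower with OGE in both lines by a small step, and by more in U2-OS.

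**Figure D4:**
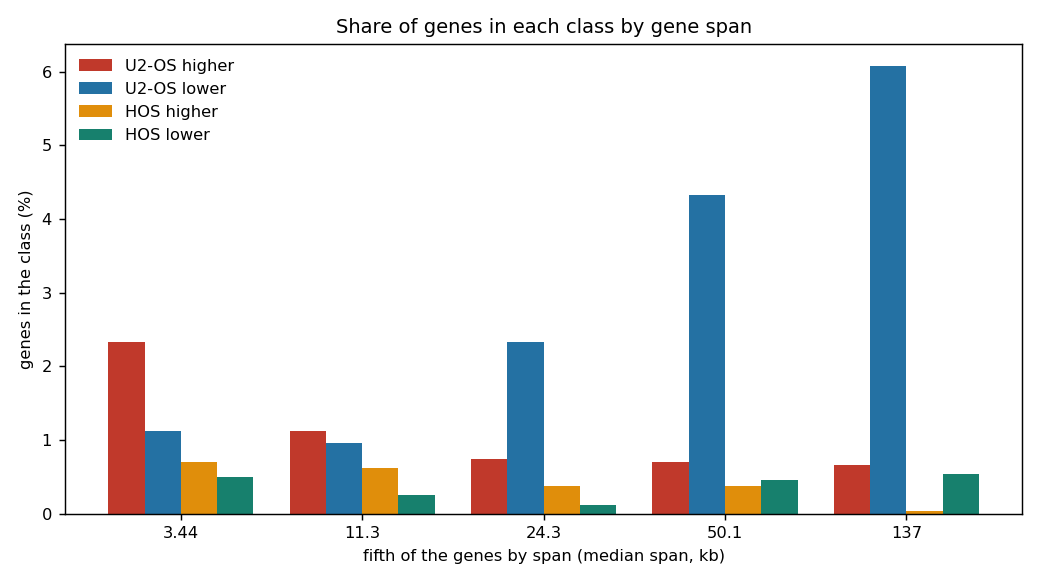
Share of genes at the floor (percent) in each class for 5 groups of genes ordered by span, labelled with the median span in kb. The U2-OS lower bars go from 1.12% in the shortest group to 6.07% in the longest and the U2-OS higher bars from 2.33% to 0.666%.

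Some line-specific genes were neighbours in the RefSeq gene order among the genes at the floor, a view chosen after the values were seen. There were 40 adjacent pairs of the same class, 29 of them U2-OS lower, 10 U2-OS higher, 1 HOS lower and 0 HOS higher. A larger class gives more such pairs, and U2-OS lower held 2.96% and U2-OS higher 1.12% of genes at the floor. The number of pairs to expect from class size was not worked out, so these counts test nothing. Small nucleolar RNA genes made some of the U2-OS higher pairs, such as SNORD75 with SNORD74 and SNORD14E with SNORD14C. MMP10, MMP1 and MMP3 formed a run of 3. SEMA3C, SEMA3E and SEMA3A, which encode secreted semaphorins that guide cell and axon movement, stood beside ELAPOR2, and all 4 were U2-OS lower with HOS responses from -0.64 to -0.03 and U2-OS responses from -2.06 to -1.54. SEMA3E was 3.98 and 3.34 in HOS without and with OGE and 6.35 and 4.29 in U2-OS. All 4 began at a higher level in U2-OS.

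A longer stretch ran from SKA2 to MED13. Of its 22 genes, 7 were U2-OS lower, a class that held 2.96% of all genes at the floor. The difference was below 0 at 19, and the share of all genes at the floor below 0 was not worked out. The median difference over all genes at the floor was -0.05. The median response of the 22 genes was -0.095 in HOS against -0.82 in U2-OS. The ends of the stretch were picked after the values were seen, so these counts test nothing. The 7 were SKA2, DHX40, CLTC, MIR21, TUBD1, BRIP1 and INTS2. CLTC, the clathrin heavy chain, was 7.37 and 7.08 in HOS and 8.67 and 7.21 in U2-OS. INTS2, a subunit of the integrator complex, was 4.29 and 4.80 in HOS and 6.23 and 5.11 in U2-OS. In both, the excess of U2-OS at the start was mostly gone with OGE. BCAS3, TBX2 and CA4, in the same stretch, had differences above 0. The genes from PCDHA4 to PCDHB11, clustered protocadherins of the cell surface, held 6 U2-OS lower genes among 15, led by PCDHB10 and PCDHB5. This stretch was picked in the same way, and the share over all genes at the floor is again 2.96%. The protocadherin genes are related members of 1 family, so single members are uncertain.

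**Figure D5:**
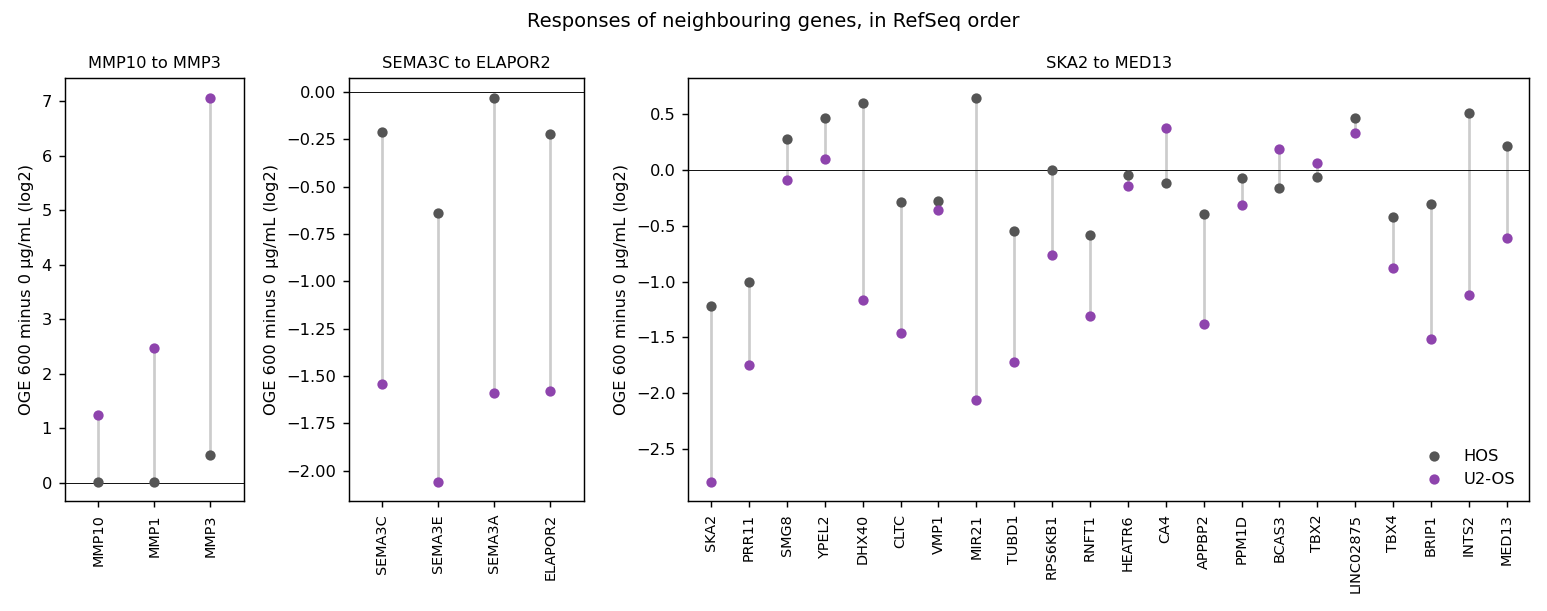
Response to OGE (log2, 600 minus 0 μg/mL) of neighbouring genes in RefSeq order in 3 stretches, HOS in grey and U2-OS in purple. U2-OS lies at 1.24 to 7.07 for the MMP genes with HOS at 0.01 to 0.50, below HOS for all 4 genes from SEMA3C to ELAPOR2, and below HOS for 19 of the 22 genes from SKA2 to MED13.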

How the data were processed

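The values used are log2 RMA values per probe set as deposited by the authors; RMA is named in the submitters' processing notes, with no version, and the log base was taken from their range of 0.16 to 13.41. RMA compresses low signals, so differences of low genes are understated. Per the labels' protocols, Trizol RNA was amplified and labelled by a whole-transcript sense-strand method. Of 33297 probe sets, 19460 had 1 symbol in the platform annotation, 1754 several and 12083 none; 19429 were matched by gene ID to RefSeq (GRCh38.p14) and 31 kept their symbol. For the 769 genes with several probe sets the one with the highest mean was used. No source used here names a genome build for the probe sets, so gene order and span are those of RefSeq.

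Genes were called by size only, since an interaction of line and dose leaves no residual degrees of freedom on 4 arrays. The calling step was run on simulated arrays, with changes larger than the threshold in genes well above the floor. That run does not cover calls near the threshold or at low levels. The genes named are the 10 with the largest difference per class, up to 5 per course of the gap, up to 5 of each list described, those nearest the threshold and the most alike; others are marked as chosen after their values were seen, or stand in a stretch or list already named. The members and lists were chosen with earlier results of these data known. Counts of differences above or below 0 have no share over all genes beside them, since it was not worked out. Promoter motifs were searched on both strands of the 250 bases upstream of the start. Alternatives were other thresholds and floors, averaging the probe sets of a gene, quantile normalization, cyclic loess (limma 3.58.1), centring, and scaling the HOS responses to the spread of U2-OS. The precision is limited by the number of arrays. Python 3.11.15, pandas 2.3.3 and R 4.3.3 were used.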

Additional observations from a re-analysis of the deposited data

Results flagged for a closer look

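Of the 31 line-specific genes with responses of at least 0.5 in opposite directions, these 13 are the ones that the rule for named genes takes, and the differences were not tested. Others, larger than some of these, include NOX4 at -2.28, CNIH3 at -2.17, GALNT16 at -2.12 and ITGB8 at -2.07. Of the genes that lead their classes, NIPAL4 had a difference of 3.20, CYP4F11, a cytochrome P450, of 2.54, PYROXD1 of -2.91, MIR21 of -2.71 and PIK3R3 of -2.51. CYP4F11 was 3.32 and 2.49 in HOS without and with OGE and 3.41 and 5.12 in U2-OS, so the lines were alike at the start and parted. In the HOS lower class, POLR3G had a difference of 2.03, CLDN1 of 2.0, TMEM88 of 1.86, the pseudogene ECEL1P2 of 1.73 and DAPK1 of 1.72. ERCC6L2, a DNA repair helicase, had a difference of -1.65, RRN3 of -1.63 and IER3 of -1.57. ERCC6L2 left the class when its 3 probe sets were averaged, at -1.18. CLDN1 was 4.40 and 3.37 in HOS and 5.06 and 6.03 in U2-OS.

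Probe sets without a gene symbol, which no comparison used, passed the same rule at 549 of 4773 at the floor. That is 11.5% against 4.88% of the genes. Opposite in the lines were 131 of the 4773 (2.74%), against 31 of the 12028 genes at the floor (0.258%). The classes of the 549 were 192 U2-OS higher, 146 U2-OS lower, 116 HOS higher and 95 HOS lower. Probe sets with several symbols passed it at 45 of 1141, which is 3.94%.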

How the results depend on the processing

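With a threshold of 1.5-fold there were 2167 line-specific genes (535 U2-OS higher, 1127 U2-OS lower, 267 HOS higher, 238 HOS lower, with 1757 in 1 line only and 98 opposite), and with 3-fold 109 (45, 56, 5 and 3, with 80 and 6). With the floor at the 75th percentile there were 350 (87, 206, 31 and 26, with 252 and 16). With the HOS responses scaled by 1.41 the HOS classes held 164 and 183 genes, and 75 were opposite. With the floor required in the other line too, the HOS lower class held 28. All other counts of these classes stayed within 1.5 times the reported ones. Under the mean of probe sets, quantile, loess, centring and HOS scaling alike, 445 of the 587 genes kept their class: 101 of 135 U2-OS higher, 270 of 356 U2-OS lower, 38 of 51 HOS higher and 36 of 45 HOS lower. For the named genes, 934 of the values under an alternative kept their side of the threshold, 35 lost the call and 26 gained one, and none was reversed. Part of this agreement was fixed in advance. Averaging cannot change a gene with 1 probe set, and 566 of the 587 had 1. HOS scaling enlarges the HOS responses, and it kept all 51 HOS higher and all 45 HOS lower genes. Of the list medians, 234 moved little and 38 moved by 0.1 or more.

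No paired analysis was possible because there was 1 array per group and the labels carry no replicate numbers. Of the 21 line-specific genes with several probe sets, 7 kept their class with the mean of the probe sets. Signals near the array median limit what can be seen of a lower level in the line that starts low.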

Other observations

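A few line-specific genes outside the lists and the leading ranks, chosen after their values were seen, belong to signalling and cell identity. LGR5, a receptor that strengthens Wnt signals, was 2.32 and 2.06 in HOS without and with OGE and 4.37 and 2.09 in U2-OS. PTCH1, the hedgehog receptor, was 3.76 and 3.88 in HOS and 6.16 and 4.26 in U2-OS, and CXCL14, a chemokine, was 4.24 and 4.25 in HOS and 8.79 and 6.35 in U2-OS. All of these were flat in HOS. DKK1, a secreted Wnt inhibitor, was the reverse, at 6.13 and 4.54 in HOS and 1.85 and 1.88 in U2-OS. ULBP2, a stress ligand seen by natural killer cells, was 2.04 and 2.12 in HOS and 1.85 and 3.89 in U2-OS. Between the clock receptors, NR1D1 had responses of 1.02 in HOS and 2.27 in U2-OS, the order opposite to that of NR1D2, with 1.98 and 0.37.

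TMEM229A and the pseudogene NCOR1P1 had 2-fold responses in opposite directions but were not called, because HOS, the line with the larger response, lay under its array medians. TMEM229A was 2.98 and 1.48 in HOS and 2.25 and 3.61 in U2-OS. NCOR1P1 was 1.23 and 3.0 in HOS and 6.34 and 4.73 in U2-OS.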
